A study of Mus musculus with 16 samples.

Results

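Solute carriers are the membrane proteins that move ions, nutrients, vitamins and metabolites across the plasma membrane and the membranes of organelles. Most of them work as uniporters, symporters or exchangers: they use a gradient of sodium, protons, chloride or the solute itself. In lung epithelium they set cell pH and volume, supply folate, choline, phosphate and carnitine, and release the lactate made by glycolysis. The genes described here were taken by symbol, as all genes named Slc followed by a number. The 12 families that carry glutamate and neutral amino acids, glucose, amino acids paired with a heavy chain, neurotransmitters, metal ions, mitochondrial metabolites and nucleotide sugars were left out (Slc1, Slc2, Slc3, Slc6, Slc7, Slc11, Slc25, Slc30, Slc35, Slc38, Slc39 and Slc40). Of 364 Slc genes in the files, 198 fitted the rule, and 81 of these had at least 10 counts in most libraries, read here as at least 9 of 16. They belonged to 30 families, among 20622 genes in all. The minimum was counted over the libraries of both lines, so a gene that is higher in 1 line can reach it through that line. Slc36a4 and Slc41a3 did so, with 4 of 8 KM_NTC libraries at the minimum and 7 and 5 of 8 KM_4A2cr libraries.

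The count minimum was reached in exactly 9 libraries by Slc26a10, Slc41a3 and Slc37a2, and in 8 libraries by Slc22a21 and Slc23a1, which stayed out. In all 16 libraries it was reached by 65 genes. Of the 117 genes that stayed out, 102 reached it in no library. None of the 5 Slc13 citrate and dicarboxylate carriers, the 3 Slc28 concentrative nucleoside carriers or the 3 Slc34 phosphate carriers was retained, against 5 of 25 Slc22 and 4 of 14 Slc16 genes. Slc34a2, the phosphate carrier of alveolar type II cells, and Slc28a2 each had 1 count over the 4 KM_NTC total RNA libraries. Slc16a7, a lactate and pyruvate carrier, had 2, and Slc43a1, an amino acid carrier, had 3. Of the 81 genes, 3 carry a carrier's symbol without encoding one: Slc9a3r1 and Slc9a3r2 encode PDZ scaffolds that tether the sodium-proton exchanger NHE3, and Slc4a1ap encodes an adaptor protein. They are kept and counted in a group of their own.

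Ribosome-protected fragments (RPFs), the pieces of mRNA shielded by translating ribosomes, and cytoplasmic total RNA were sequenced from the same lysates of KM_NTC and KM_4A2cr cells. Both lines descend from lung tumours of 1 male mouse that carried Rosa26LSL-MYC/LSL-MYC at Rosa26, in which Cre expressed from the surfactant protein C promoter switched on MYC in alveolar type II cells. KM_NTC cells carry lentiCRISPR with a non-targeting guide, and KM_4A2cr cells are a pool of 4 clones without detectable eIF4A2, the RNA helicase encoded by Eif4a2, so that selection of clones and loss of eIF4A2 cannot be told apart. Cells were untreated, with 4 replicates per line harvested on different days, and the replicate number was taken to pair a KM_NTC with a KM_4A2cr library. The comparison asks how carrier mRNAs and their ribosome occupancy differ once eIF4A2 is lost.

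Counts per library lay between 4512403 and 9621848 for RPFs and between 5350919 and 9312622 for total RNA. Eif4a2 RPFs were lower in KM_4A2cr cells in 4 of 4 pairs, at -0.49 on the log2 scale (standard error, SE, 0.15; adjusted p = 0.0941 by edgeR). The value for Eif4a2 total RNA was -0.18 (adjusted p = 0.504 by edgeR). In replicate 4, Eif4a2 RPFs were at 388 CPM (counts scaled by library size) in KM_NTC and 345 CPM in KM_4A2cr. In replicates 1 to 3 they were at 97.5 to 122 CPM and 50.9 to 88.3 CPM. Total RNA of Eif4a2 was at 523 and 466 CPM in replicate 4, against 220 to 253 CPM and 183 to 241 CPM. Libraries of replicate 4 stood apart in both lines: Cd68, a lysosomal protein used as a macrophage marker, had 220 and 154 TPM there, against 32.5 to 62.9 TPM in replicates 1 to 3. The 5 other leukocyte markers were each under 1 TPM in both lines, as were 7 of 8 fibroblast and 4 of 4 endothelial markers. The 6 epithelial markers summed to between 4194 and 6083 TPM, while 7 of 10 alveolar type II markers were under 1 TPM and Sftpc and Sftpb were at 0 in every library. Of the other surfactant genes, Sftpd and Sftpa1 had 0.367 and 0.0425 TPM in KM_NTC. Abca3, the lipid carrier of lamellar bodies, had 31.2 TPM and the transcription factor Etv5 had 14.8 TPM, so some type II markers were expressed and others were not detected.

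Total RNA level differed widely among the carriers, from 0.35 to 230 TPM (an mRNA level corrected for transcript length and library size) in KM_NTC cells, with a median of 12.9 TPM. The 10 genes above 100 TPM held 57.0% of the summed TPM of the 81. Slc16a1, which encodes the proton-linked lactate and pyruvate carrier MCT1, was the highest at 230 ± 53.7 TPM (SD, n = 4). It was followed by Slc12a2, the sodium-potassium-chloride cotransporter NKCC1, at 209 ± 59 TPM, a difference within the spread of either gene. Slc44a1, a choline carrier, had 193 ± 33.3 TPM, and its relative Slc44a2 had 181 ± 46 TPM. Slc20a1, a sodium-phosphate cotransporter, had 160 ± 27.1 TPM. Slc48a1, which exports heme from lysosomes, had 146 ± 80.4 TPM. Slc4a11, a bicarbonate carrier relative whose substrates are debated, had 133 ± 40.7 TPM, the sugar carrier Slc50a1 114 ± 25.2 TPM, the thiamine carrier Slc19a2 106 ± 22.0 TPM and the sodium-bicarbonate cotransporter Slc4a7 102 ± 25.8 TPM. Neighbours in this order differed by less than their SD. Slc16a3 (MCT4), the lactate exporter of many tumours, lay outside the 81, with 8 counts over the 4 KM_NTC total RNA libraries. In RPFs it had 72 counts over the 4 libraries of each line and reached the count minimum in 5 of 8. Its RPF change was 0.19 on the log2 scale (adjusted p = 0.816 by edgeR).

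**Figure D1:**
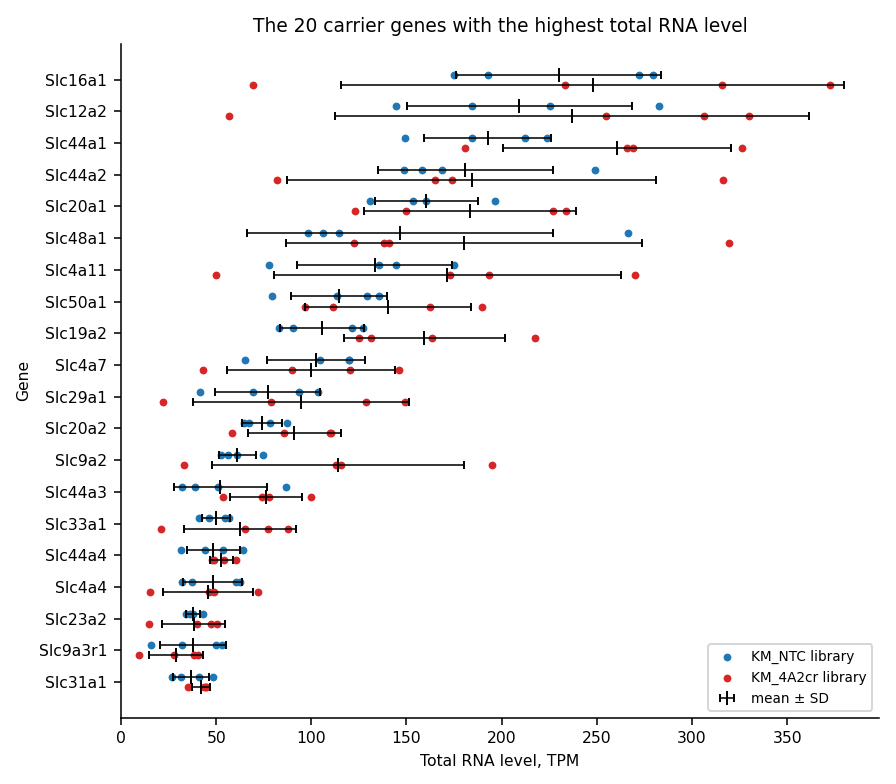
Total RNA level in TPM of the 20 carrier genes with the highest mean in KM_NTC cells, with 1 point per library, blue for KM_NTC and red for KM_4A2cr, and black bars for mean ± SD (n = 4). Slc16a1 at 230 TPM and Slc12a2 at 209 TPM lead, and the points of the 2 lines overlap for each of the 20 genes.

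Short stretches of promoter are shown for 3 abundant or risen genes that hold, in a stretch wholly before the start site, an E-box, the CACGTG motif bound by MYC and by other basic helix-loop-helix factors, since all these cells express MYC from a transgene. The bases come from RefSeq on build GRCm38.p6, another build than that of the deposited tables, and run 5′ to 3′ on the gene's strand, with the motif in capitals. Slc16a1 lies on the plus strand at chr3:104638452-104638481, Slc20a1 on the plus strand at chr2:129198586-129198615 and chr2:129198739-129198768, and Slc41a3 on the plus strand at chr6:90619021-90619050.
Slc16a1: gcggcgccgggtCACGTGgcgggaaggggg
Slc20a1, 175 bases before the start site: gccagccagtccCACGTGgaccagctcctc
Slc20a1, 22 bases before the start site: ggctcggcaggtCACGTGgggcgcagaacc
Slc41a3: agcagcccatggCACGTGtgcagaggacac
An E-box lay between 250 bases before and 50 bases after a start site for 12 of the 59 genes with a RefSeq entry, or 20.3%. Among all 8194 tested genes with an entry the share was 12.4%, and among all 27025 entries 8.09%. Slc41a3 and Slc37a3 held one among the 14 genes with an entry that were higher in RPFs, as described next.

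A GC box, GGGCGG on either strand, was found for 44 of the 59 genes (74.6%), against 72.1% of the tested genes. Slc44a1 (plus strand, chr4:53440262-53440291) and Slc36a4 (plus strand, chr9:15709700-15709729) are shown because their RPFs moved furthest from no change for an abundant and for a scarce carrier. Each stretch ends before the start site, and GC boxes in it are in capitals. Slc36a4 shows 1 on each strand, and both genes hold further GC boxes outside the stretch shown.
Slc44a1: gcgctgcactggGGGCGGggagtctgatgg
Slc36a4: ccagcccgggccCCGCCCctcgGGGCGGct
The CCAAT box (CCAAT, either strand) was found for 24 of 59 genes, or 40.7%, against 43.3% of tested genes. The cAMP response element TGACGTCA, which is its own reverse complement, was found for 0 of 59, against 3.78% of tested genes. The E-box is also its own reverse complement, and none of these 4 motifs contains another.

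RPFs of the carriers were more often higher than lower in KM_4A2cr cells. Of the 81 genes, 18 were higher and 1 was lower at an adjusted p under 0.1 (quasi-likelihood test in edgeR, Benjamini-Hochberg adjusted across the whole table). That is 22.2% higher and 1.23% lower, where 6.6% of all 10291 genes tested were higher and 3.72% lower. The log2 fold changes of the 18 ran from 0.46 to 2.43 with a median of 0.72, and 15 of the 18 were higher in 4 of 4 pairs. The test used the same 4 pairs and so favours genes in which they agree. With the minimum taken over KM_NTC libraries alone, which was chosen after seeing the data and leaves out Slc36a4 and Slc41a3, 16 of 79 genes were higher by RPFs and 13 by total RNA. Over all 81 genes the median log2 fold change was 0.29, against -0.01 for all genes, and 65 of 81 were above 0. In total RNA, 14 of 76 tested genes were higher (18.4%) and 0 lower, where 4.35% of all 10880 genes were higher and 1.78% lower. At an unadjusted p under 0.05, 2 were lower by edgeR, and DESeq2 also called 0 lower. The median log2 fold change was 0.32 in total RNA, against 0.01 for all genes, and 11 genes were higher in both kinds of library.

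**Figure D2:**
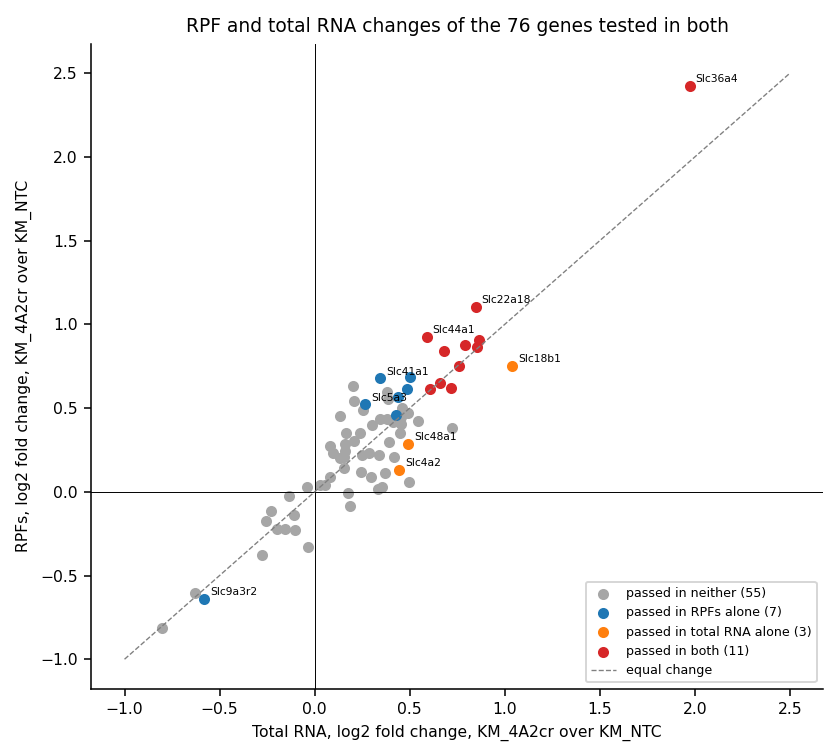
Log2 fold change of KM_4A2cr over KM_NTC in total RNA (x axis) and RPFs (y axis) for the 76 genes tested in both, coloured by which test they passed. Red points (11 genes, both tests) lie near the dashed line of equal change, and Slc36a4 stands alone at 1.97 and 2.43.

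The rise was not uniform over the 4 pairs. The median log2 ratio of the 81 genes was 0.61, 0.48 and 0.26 in pairs 1, 2 and 3 and -0.23 in pair 4 for RPFs. For total RNA it was 0.66, 0.38, 0.44 and -0.23 over the 76 tested. In RPFs, 74, 73 and 61 of the 81 genes were above 0 in pairs 1 to 3, and 23 in pair 4. Of the 18 higher genes, 15 were above 0 in pair 4 too. The call used pair 4 and so favours such genes, and this count is no separate support. KM_NTC replicate 4 was above the mean of replicates 1 to 3 for 53 of 81 genes in RPFs, with a median log2 difference of 0.36. KM_4A2cr replicate 4 was above that mean for 35, with a median of -0.17. Without replicate 4, 51 of 81 genes were higher in RPFs and 4 lower, where 19.1% of all genes were higher and 14.3% lower, and the 51 included all 18. Without replicates 1, 2 or 3 the count of higher genes was 5, 2 or 0, and the share of all genes 1.53%, 0.914% or 0.281%. At 0, 22 genes had an unadjusted p under 0.05. The part of replicate 4's high Cd68 and Eif4a2 in these differences was not tested.

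**Figure D3:**
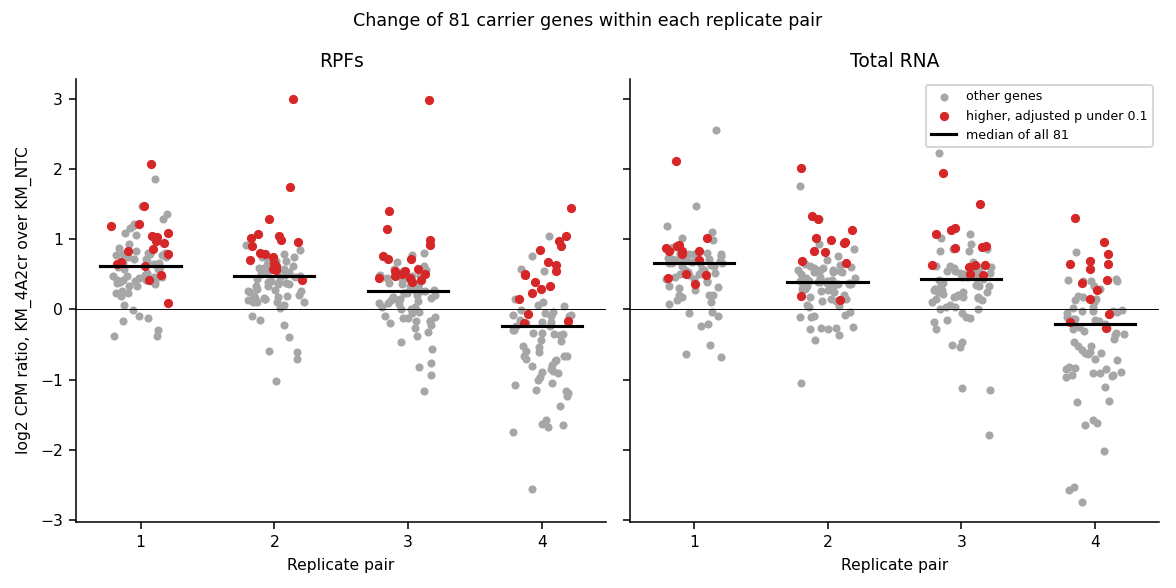
Log2 CPM ratio of KM_4A2cr over KM_NTC in each replicate pair for all 81 genes, RPFs on the left and total RNA on the right, with red points for genes higher at an adjusted p under 0.1 and a black line at the median of all 81. Medians are above 0 in pairs 1 to 3 and below 0 in pair 4. Most red points are above 0 in pair 4, but they were chosen by a test that includes it.

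Choline enters cells for phosphatidylcholine synthesis through the Slc44 family, and 2 of its 4 retained members were higher in both kinds of library. Beside this and each later group count, 6.6% of all genes were higher in RPFs and 4.35% in total RNA. Slc44a1 (ENSMUSG00000028412.18) had 152, 108, 203 and 282 CPM (counts scaled by TMM-normalised library size) in RPFs of KM_NTC replicates 1 to 4 and 352, 216, 403 and 400 CPM in KM_4A2cr. Each KM_4A2cr library was above its paired KM_NTC library, and the groups overlapped in the second replicate. The log2 fold change was 0.93 (SE 0.14, adjusted p = 0.0127 by edgeR). Total RNA of Slc44a1 went from 379 ± 102 to 560 ± 87.7 CPM (SD, n = 4), with a log2 fold change of 0.59 (adjusted p = 0.0818 by edgeR). Its RPFs thus rose beyond its mRNA: the translational efficiency, the RPF change minus the total RNA change, was 0.34 (SE 0.09, adjusted p = 0.0690 by edgeR). It was the only one of 76 genes called higher in translational efficiency, or 1.32%, where 1.87% of all 9989 genes were called higher. Values above 0 were found for 42 of the 76.

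Slc44a3, a less studied member of the choline family, had 67.2, 67.1, 109 and 242 CPM in KM_NTC RPFs and 139, 137, 241 and 295 CPM in KM_4A2cr. Both lines were highest in replicate 4, and all 4 pairs rose. Its log2 fold change was 0.88 in RPFs (SE 0.16, adjusted p = 0.0224 by edgeR) and 0.79 in total RNA (adjusted p = 0.0234 by edgeR). Slc44a2 and Slc44a4 did not pass, with RPF log2 fold changes of 0.09 and 0.22. Slc44a2 was higher in 2 of 4 pairs.

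Organic cation and anion carriers had the highest median RPF change of any group, 0.62, and 3 of 5 were higher. Slc22a5, or OCTN2, brings carnitine into the cell with sodium. It had 12.3, 10.2, 16.4 and 20.7 CPM in KM_NTC RPFs and 23.9, 15.1, 22.4 and 29.1 CPM in KM_4A2cr. The groups overlapped, but each pair rose, with a log2 fold change of 0.62 (SE 0.15, adjusted p = 0.0493 by edgeR) and 0.72 in total RNA (adjusted p = 0.0278 by edgeR). Slc22a18, a carrier-like protein from an imprinted locus, had 23.6, 19.9, 46.1 and 58.3 CPM in KM_NTC RPFs and 50.4, 66.7, 87.5 and 92.8 CPM in KM_4A2cr. Its log2 fold change of 1.10 (SE 0.18, adjusted p = 0.0141 by edgeR) was the second largest of the 18. Slc22a15 was higher in 3 of 4 pairs, at 0.68 (adjusted p = 0.0932 by edgeR), a call that ended with DESeq2. The other two, Slc22a4 and Slc22a23, did not pass, at 0.45 and 0.54.

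Among amino acid and peptide carriers, Slc36a4, or PAT4, which carries proline and tryptophan, had the highest log2 fold change of the 81 genes. It reached the count minimum only through KM_4A2cr libraries and was scarce: 21 RPF counts over the 4 KM_NTC libraries and 95 over the 4 KM_4A2cr libraries. In CPM this was 0.904, 0.297, 0.41 and 1.05 in KM_NTC and 4.1, 3.07, 3.92 and 2.15 in KM_4A2cr. Every KM_4A2cr library was above every KM_NTC library, as they were in total RNA, which held for no other of the 81 genes. Having entered through the line in which it is high, it says nothing about the carriers as a group. Such separation upwards was found for 0.981% of all genes in RPFs and 0.938% in total RNA. On the log2 scale the change was 2.43 in RPFs (SE 0.38, adjusted p = 0.0129 by edgeR) and 1.97 in total RNA (SE 0.23, adjusted p = 0.00215 by edgeR). With any 1 replicate left out, total RNA still passed, at 1.89 to 2.06 (adjusted p up to 0.0397 by edgeR), whereas RPFs, at 2.18 to 2.71, passed without replicates 1, 2 or 4 and did not pass without replicate 3 (adjusted p = 0.176 by edgeR). Slc15a4, Slc36a1 and Slc43a2, which carry peptides and histidine, small amino acids, and branched-chain amino acids, had RPF log2 fold changes of 0.22, 0.42 and 0.21 and did not pass.

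Vitamin carriers were mixed, with 2 of 8 higher in RPFs and 3 of 8 in total RNA. Slc19a2, which takes up thiamine, had 161, 89.3, 201 and 170 CPM in KM_NTC RPFs and 215, 141, 284 and 461 CPM in KM_4A2cr. All pairs rose, most in replicate 4, for a log2 fold change of 0.75 (SE 0.18, adjusted p = 0.0513 by edgeR) and 0.76 in total RNA (adjusted p = 0.0176 by edgeR). The proton-coupled folate carrier Slc46a1 had 14.3, 17, 32.2 and 28.9 CPM in KM_NTC RPFs and 39.8, 27.6, 47 and 44.9 CPM in KM_4A2cr, or 0.84 (adjusted p = 0.0316 by edgeR). Its total RNA rose in 3 of 4 pairs, by 0.68 (adjusted p = 0.0989 by edgeR), a call that ended with DESeq2. The other folate carrier, Slc19a1, did not pass: -0.22 in RPFs, with 8.07 CPM in KM_4A2cr replicate 4 against 25.4 CPM in its pair. Slc48a1, the heme carrier, passed in total RNA alone, at 0.49 (adjusted p = 0.0892 by edgeR), with 0.28 in RPFs. Riboflavin carriers Slc52a2 and Slc52a3 had 0.21 and 0.25, the ascorbate carrier Slc23a2 0.04 and its relative Slc23a3 -0.60 in RPFs, none of which passed.

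Both retained members of the sodium-coupled Slc5 family were higher in RPFs. Slc5a3 takes up myo-inositol, an osmolyte and a lipid precursor. It had 84.3, 41.7, 63.1 and 274 CPM in KM_NTC RPFs and 134, 72.5, 82.7 and 323 CPM in KM_4A2cr. Replicate 4 was far above the others in both lines, and the change within pairs was 0.52 (SE 0.14, adjusted p = 0.0687 by edgeR). Its total RNA did not pass, at 0.27 (adjusted p = 0.431 by edgeR). Slc5a6, the carrier of biotin and pantothenate, was higher by 0.62 in RPFs (adjusted p = 0.0784 by edgeR) and by 0.61 in total RNA (adjusted p = 0.0433 by edgeR), each in 4 of 4 pairs.

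Sodium-proton exchangers export acid and bring in sodium. Slc9a2 (NHE2), an epithelial exchanger, had 103, 66.4, 139 and 121 CPM in KM_NTC RPFs and 212, 162, 366 and 107 CPM in KM_4A2cr. It rose in pairs 1 to 3 and not in pair 4, with a log2 fold change of 0.90 (SE 0.24, adjusted p = 0.0690 by edgeR), and 0.86 in total RNA (adjusted p = 0.0889 by edgeR). Values from -0.51 for Slc9a7 to 0.63 for Slc9b2 were found in RPFs of 6 exchangers that did not pass. Slc9a4 had 2.15 CPM in RPFs of KM_4A2cr replicate 4, where its other RPF libraries had between 12.7 and 46.1 CPM.

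The scaffolds were on the other side of 0. Slc9a3r2 (NHERF2) had 10.8, 9.52, 7.94 and 6.29 CPM in KM_NTC RPFs and 8.32, 5.77, 5.33 and 2.69 CPM in KM_4A2cr. Every pair was lower, and it was the only one of the 81 genes called lower, with a log2 fold change of -0.64 (SE 0.18, adjusted p = 0.0830 by edgeR). With DESeq2 it was not called. Its total RNA had -0.58 (adjusted p = 0.147 by edgeR). Only 14.9% of its total RNA counts fell on the isoform that carries its RPF counts. Slc9a3r1 and Slc4a1ap had RPF log2 fold changes of -0.18 and -0.22 and did not pass.

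Bicarbonate and anion exchangers set pH and chloride, and 1 of 10 was higher in RPFs, or 10%, against 6.6% of all genes. Slc26a2, the sulfate carrier needed to sulfate proteoglycans, had 27.5, 13.6, 20.7 and 75.4 CPM in KM_NTC RPFs and 49.9, 26.5, 30.8 and 156 CPM in KM_4A2cr. Replicate 4 was highest in both lines, and each pair rose. With a log2 fold change of 0.87 (SE 0.13, adjusted p = 0.0118 by edgeR) it had the smallest p of the 81 genes in RPFs, and its total RNA rose by 0.86 (adjusted p = 0.0129 by edgeR). Slc4a2, the chloride-bicarbonate exchanger AE2, passed in total RNA at 0.44 (adjusted p = 0.0997 by edgeR), a call that ended with DESeq2 and with each other scaling, and had 0.13 in RPFs. The abundant Slc4a7 and Slc4a11 had 0.04 and 0.11 in RPFs and did not pass, each higher in 3 of 4 pairs. The lowest values were those of Slc26a10, Slc26a9 and the sodium-bicarbonate cotransporter Slc4a4, at -0.40, -0.38 and -0.33, which did not pass.

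Among the cation-chloride cotransporters, which regulate cell volume, 1 of 5 was higher. Slc12a4 (KCC1), which lets potassium and chloride out, had 161, 175, 260 and 403 CPM in KM_NTC RPFs and 246, 235, 356 and 510 CPM in KM_4A2cr. The log2 fold change was 0.46 (SE 0.12, adjusted p = 0.0669 by edgeR), the smallest of the 18, and 0.43 in total RNA (adjusted p = 0.112 by edgeR). Slc12a2 (NKCC1), which brings chloride in, had 709, 711, 1103 and 851 CPM in KM_NTC RPFs and 1056, 982, 1338 and 587 CPM in KM_4A2cr. It was higher in pairs 1 to 3 and lower in pair 4, and did not pass (0.20, adjusted p = 0.555 by edgeR).

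Phosphate and sugar phosphate carriers had 2 of 6 members higher in RPFs and 0 of 5 in total RNA, by edgeR and by DESeq2, with 3 at an unadjusted p under 0.05. Slc20a2, a sodium-phosphate cotransporter, was higher by 0.57 on the log2 scale (SE 0.17, adjusted p = 0.0900 by edgeR) in RPFs, in 3 of 4 pairs. Slc37a3, of the sugar phosphate family, had 51.4, 30, 55.8 and 58.9 CPM in KM_NTC RPFs and 102, 44.8, 78.9 and 76.9 CPM in KM_4A2cr, or 0.62 (adjusted p = 0.0422 by edgeR). The more abundant cotransporter Slc20a1, shown above with 2 E-boxes, went the other way relative to its mRNA. Its RPFs were at 540, 301, 445 and 725 CPM in KM_NTC and 716, 283, 604 and 443 CPM in KM_4A2cr, with no common direction (0.02, adjusted p = 0.972 by edgeR). Its total RNA was at 280, 194, 273 and 423 CPM and 429, 238, 435 and 356 CPM (0.33, adjusted p = 0.341 by edgeR). Its translational efficiency change was -0.32 on the log2 scale (SE 0.09, adjusted p = 0.0900 by edgeR). It was the only fall past the threshold among 76 genes, or 1.32%, where 1% of all genes were called lower. With 1 replicate left out it was -0.35 to -0.25, with an adjusted p between 0.0709 and 0.358 by edgeR. This call was lost under the same settings as that of Slc44a1.

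Magnesium carriers Slc41a1 and Slc41a3 were both higher in RPFs. Slc41a1 had 13.7, 3.77, 9.44 and 7.12 CPM in KM_NTC and 21.6, 6.64, 12.6 and 13.4 CPM in KM_4A2cr, or 0.68 (SE 0.16, adjusted p = 0.0481 by edgeR). Slc41a3, at 1.2 to 5.9 CPM in KM_NTC and 1.7 to 8.6 CPM in KM_4A2cr, was higher in 4 of 4 pairs by 0.75 (adjusted p = 0.0888 by edgeR), a call that ended with DESeq2. It too reached the count minimum only through KM_4A2cr libraries. It was too scarce in total RNA to be tested. The copper carriers Slc31a1 and Slc31a2 had 0.29 and 0.47 in RPFs and did not pass.

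With all 4 replicates, no carrier of lactate, nucleosides, fatty acids or acetyl-CoA, or calcium passed in either kind of library, by edgeR or DESeq2. At an unadjusted p under 0.05 by edgeR there were 3 of 13 in RPFs and 0 of 12 in total RNA. Without replicate 4 some did pass by edgeR, with log2 fold changes in brackets. In RPFs Slc16a1 (0.47), Slc29a1 (0.51), Slc33a1 (0.62) and Slc8b1 (0.45) were then higher, among 51 of the 81 genes, with 4 lower. In total RNA Slc16a1 (0.39), Slc29a1 (0.48) and Slc33a1 (0.62) were among 54 higher genes, with 3 lower. The shares of all genes higher were then 19.1% and 17.8%. For Slc16a1 (MCT1) RPFs were at 1264, 810, 1450.5 and 1180 CPM in KM_NTC and 1914, 1138, 1820 and 938 CPM in KM_4A2cr. Pairs 1 to 3 were higher and pair 4 lower, and the log2 fold change was 0.27 (SE 0.17, adjusted p = 0.364 by edgeR), with 0.08 in total RNA (adjusted p = 0.896). Its relatives Slc16a6 and Slc16a13 had 0.35 and 0.44 in RPFs. The equilibrative nucleoside carriers Slc29a1 (ENT1), Slc29a2 (ENT2) and Slc29a3 had 0.23, 0.03 and 0.09 in RPFs and 0.29, 0.35 and 0.29 in total RNA. Slc33a1, which moves acetyl-CoA into the endoplasmic reticulum, had 0.43 in RPFs (adjusted p = 0.153 by edgeR) and was higher in 3 of 4 pairs. Of the sodium-calcium exchangers, the mitochondrial Slc8b1 had 0.28 and the plasma membrane Slc8a1 had -0.81 (adjusted p = 0.108 by edgeR) in RPFs, the lowest value of the 81 genes.

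Vesicular, lysosomal and other carriers had 0 of 9 members past the threshold in RPFs by edgeR or DESeq2, with 3 at an unadjusted p under 0.05 and 8 of 9 above 0. In total RNA the vesicular polyamine carrier Slc18b1 passed, with 10.4, 6.29, 11.1 and 3.06 CPM in KM_NTC and 18.6, 15.9, 25 and 4.14 CPM in KM_4A2cr. All 4 pairs rose, by 1.04 on the log2 scale (SE 0.18, adjusted p = 0.0123 by edgeR), with 0.75 in RPFs (adjusted p = 0.109 by edgeR). The sugar carrier Slc50a1 had 0.45 in both kinds of library and did not pass.

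**Figure D4:**
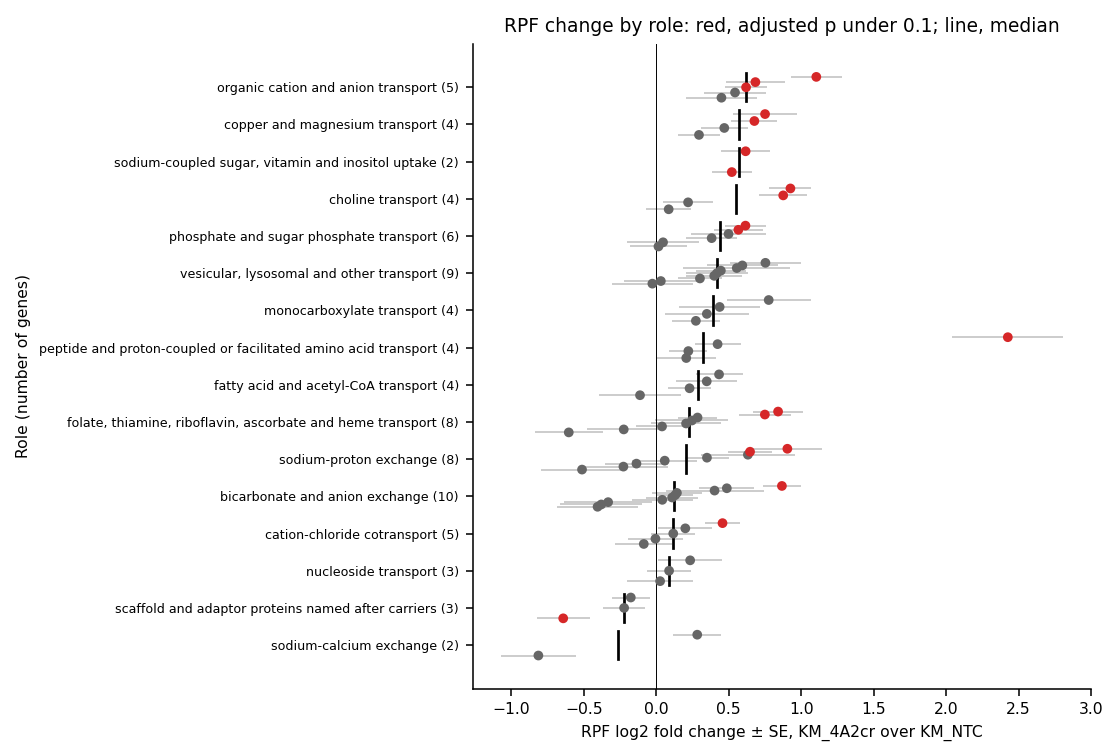
RPF log2 fold change of KM_4A2cr over KM_NTC for each of the 81 genes (points, with bars for the standard error), by role, with red points at an adjusted p under 0.1 and black lines at the median of each role. Organic cation and anion carriers have the highest median (0.62) and the 2 sodium-calcium exchangers the lowest (-0.27), and the scaffolds lie below 0.

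**Figure D5:**
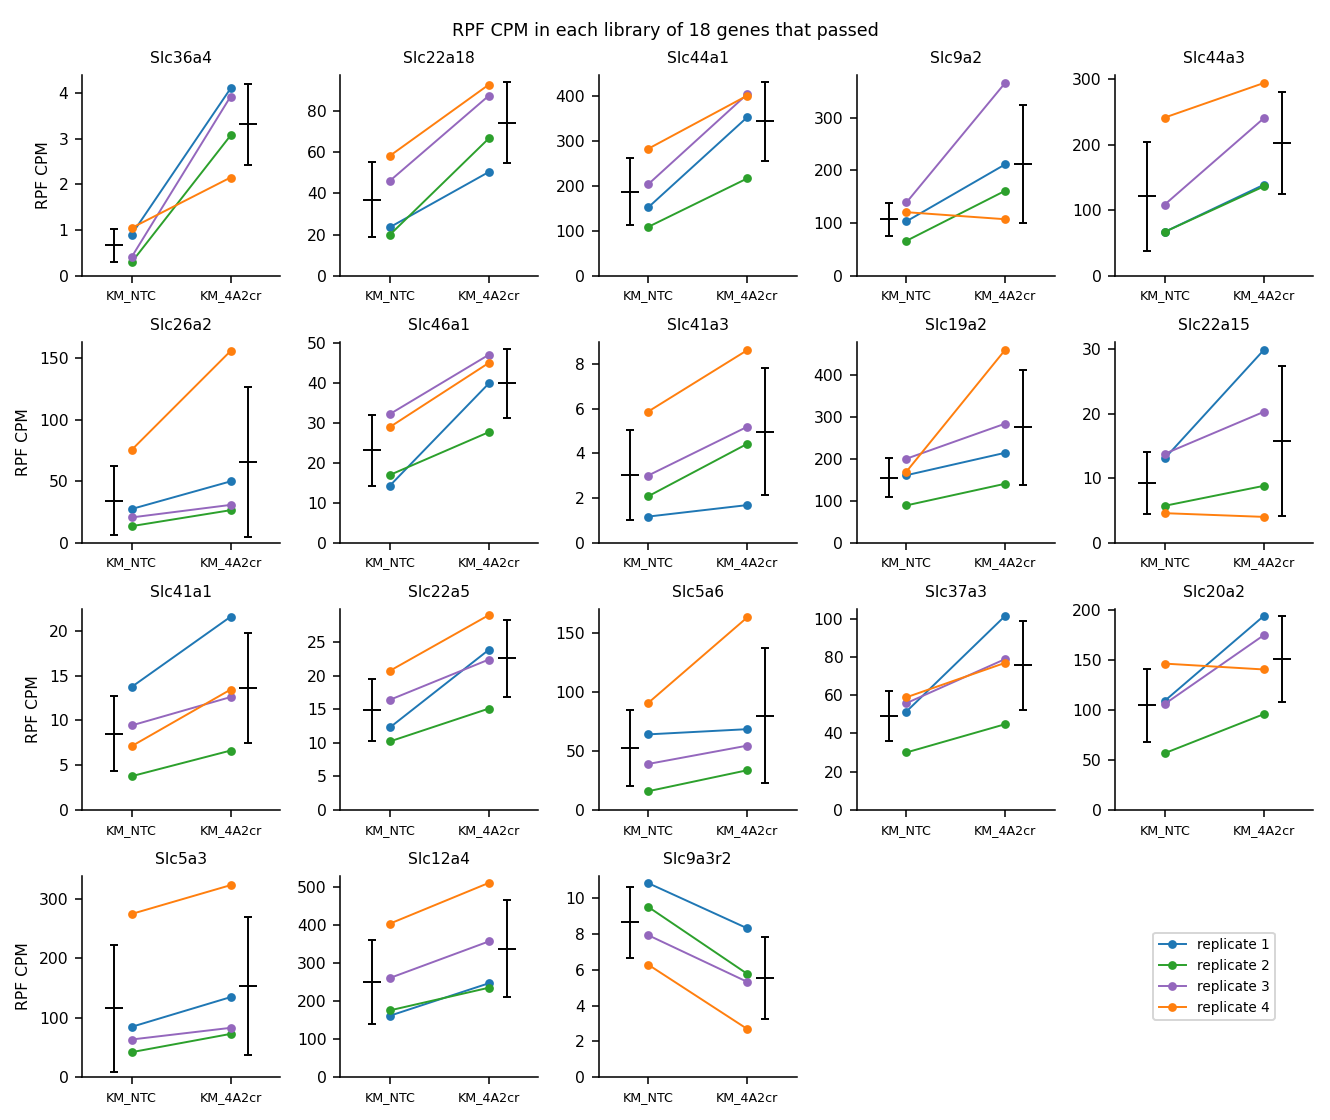
RPF CPM in each library for 17 of the 18 genes that were higher and for Slc9a3r2, which was lower, with lines joining the libraries of 1 replicate and black bars for mean ± SD (n = 4). Lines rise in 4 of 4 pairs for 14 of the 17 genes, and in Slc9a2, Slc20a2 and Slc22a15 replicate 4 does not rise.

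Genes that serve these carriers were counted as a list of 42: chaperones of MCT1, sodium-potassium ATPase subunits, WNK kinases, carbonic anhydrases and others. In RPFs 26 could be tested, of which 2 were higher and 0 lower, or 7.69% against 6.6% of all genes. At an unadjusted p under 0.05, 6 were higher and 3 lower by edgeR. DESeq2 called 4 higher and 1 lower, where it called 6.52% of all genes higher. Xpr1, on this list although it exports phosphate itself, was higher by 0.68 (SE 0.13, adjusted p = 0.0239 by edgeR). Fxyd5, a regulator of the sodium-potassium ATPase, was higher by 0.67 (adjusted p = 0.0409 by edgeR). Bsg, the chaperone that brings MCT1 to the membrane, had 0.42 (adjusted p = 0.122 by edgeR). In total RNA, 3 of 27 were higher, or 11.1% against 4.35% of all genes. They were Fxyd5 at 0.86 (adjusted p = 0.00990 by edgeR), its relative Fxyd3 at 1.20 and the carbonic anhydrase Car2 at 0.67 (adjusted p = 0.00243 and 0.0406 by edgeR). The last 2 were named after their values were seen. Fxyd3 had 754 total RNA counts in KM_NTC and 1366 in KM_4A2cr, but 5 and 16 RPF counts, too few to be tested in RPFs.

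Summed over the 81 genes, RPFs amounted to 7652, 5781, 9117 and 10068 CPM in KM_NTC and 11384, 7795, 11204 and 8965 CPM in KM_4A2cr, so the sum was higher in 3 of 4 pairs.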

How the data were processed

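RPFs and cytoplasmic total RNA were analysed in 16 libraries, 4 per cell line and kind. The RPF files hold whole-number counts, which the authors deposited per transcript after trimming (cutadapt 1.18), duplicate removal (UMI-tools 1.0.1) and alignment to 1 transcript per gene, summed over coding sequence. For total RNA they deposited RSEM 1.3.3 expected counts and TPM per isoform (Bowtie2 2.3.5.1). Here counts were summed per gene and rounded, a transcript missing from an RPF table counted as 0, and symbols came from a gene name table (20586 of 20622 genes).

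Scarce genes were removed by filterByExpr within each kind. TMM factors and the quasi-likelihood test of edgeR 4.0.16 followed (R 4.3.3; DESeq2 1.42.0 as alternative), in a model of cell line plus replicate. Benjamini-Hochberg adjustment covered every gene that entered a fit, and 0.1 was the threshold. A single model over all libraries, with lysate terms, gave translational efficiency as an interaction. Tests were tried on simulated data. Pair ratios added 0.1 CPM to each value. A change shared by all mRNAs leaves no trace after normalisation.

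Replicates were harvested on different days, and deviations from the line means correlated within pairs at 0.763, 0.782, 0.575 and 0.687 in RPFs and 0.756, 0.736, 0.611 and 0.708 in total RNA, so the pairing was kept as a block. Cells came from 1 mouse, so p-values measure spread between harvests. Levels were compared between genes only as TPM, since coding lengths were not used here. Counting limits the scarce genes most.

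The genes, roles, partner and marker lists were chosen with earlier results of these data known. Named genes were those past the threshold (the 20 smallest p in RPFs, 8 in total RNA, 6 in translational efficiency), the 10 highest by TPM, the member with most RPF counts of any other role, 11 genes of lactate, nucleoside, phosphate, amino acid, proton and chloride transport, and up to 6 partners. Others are named by their place in a group. Some genes and 1 allele of the mouse are not reported here. Alternatives were other scalings, filters, tools and thresholds, no block, 1 isoform per gene, other count minimums and each replicate left out.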

Additional observations from a re-analysis of the deposited data

Results flagged for a closer look

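In 144 groups of 4 libraries of the named genes, with a mean of at least 1 CPM, 8 had 1 library set apart from the others by Dixon's test, where chance gives about 5% of groups, and 5 of the 8 were replicate 4. The heme carrier Slc48a1 accounted for 4: replicate 4 had 361 CPM in KM_NTC RPFs against 88.1 to 130 CPM in the others, and 527 CPM in KM_4A2cr RPFs against 99.0 to 133 CPM. In total RNA it had 437 CPM in KM_NTC against 130 to 142 CPM, and 705 CPM in KM_4A2cr against 148 to 206 CPM. Slc22a18 had 11.3 CPM in total RNA of KM_NTC replicate 4, against 5.12 to 6.08 CPM. Slc12a2 had 1030 CPM in total RNA of KM_NTC replicate 3, against 637 to 686 CPM. Slc29a2 had 14.3 CPM in total RNA of KM_NTC replicate 1, against 3.23 to 4.46 CPM. Slc16a3 had 4.16 CPM in RPFs of KM_NTC replicate 1, against 0.992 to 1.37 CPM.

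The RPF and total RNA changes differed by the interaction test in 2 genes: by 0.34 in Slc44a1, with 0.93 in RPFs and 0.59 in total RNA, and by -0.32 in Slc20a1, with 0.02 and 0.33.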

How the results depend on the processing

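The median log2 fold change of the 81 genes stayed above 0 under every alternative run, with a range of 0.14 to 0.45 for RPFs and 0.16 to 0.47 for total RNA. Library size as the only scaling moved the median of all genes to -0.14 in RPFs and -0.15 in total RNA, and that of the 81 to 0.16 in both.

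Counts of calls moved more. Without the replicate block 0 genes were higher and 0 lower in RPFs, and 0 higher in total RNA, where no gene of the whole table passed by edgeR. At an unadjusted p under 0.05 there were 6 and 7 higher. A threshold of 0.05 left 10 higher and 0 lower in RPFs and 8 higher in total RNA. Of the 18 genes higher in RPFs, 15 remained with upper-quartile factors, all but Slc20a2, Slc22a15 and Slc41a3. With library size only 12 remained, and Slc12a4, Slc5a3 and Slc5a6 were lost as well. The shares of all genes higher were then 5.19% and 4.68%. Lower calls in RPFs were 0 with DESeq2, 2 with upper-quartile factors and 3 with library size only. In total RNA, 8 genes were higher with upper-quartile factors and with library size only, 22 without a filter and 9 on the RPF isoform. Lower ones were 2 with library size only and 2 without a filter.

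For the partners, 0 were higher without the block in either kind. DESeq2 gave 4 higher in RPFs and 5 in total RNA, where 6.52% and 4.03% of all genes were higher. Lower partners in RPFs were 1 with DESeq2, 1 with upper-quartile factors, 4 with library size only and 1 without a filter. In total RNA they were 1 with DESeq2, 2 with RLE factors, 3 with library size only, 2 without a filter and 1 on the RPF isoform. Both translational efficiency calls were lost, to 0 higher and 0 lower, without lysate terms (replicate block kept), without the replicate block, with library size only and at 0.05. At an unadjusted p under 0.05, 0 were left in the first 2 of these.

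With 1 replicate left out, genes higher ranged from 0 to 51 in RPFs and 1 to 54 in total RNA, and genes lower from 0 to 4 and 0 to 3. Partners higher ranged from 0 to 10 and 1 to 10, and lower from 0 to 5 and 0 to 5. Translational efficiency calls ranged from 0 to 2 higher and 0 to 1 lower. Replicate 4 gave each highest count when left out. Of all genes in the whole table, 19.1% were then higher by RPFs and 17.8% by total RNA. Leaving out replicates 1, 2 or 3 gave total RNA shares of 1.23%, 0.944% or 0.458% of all genes, beside 4, 1 or 2 higher carriers. The count of higher carriers thus rose with the share of all genes when replicate 4 was left out. With DESeq2, 16 of the 18 genes higher in RPFs remained, all but Slc22a15 and Slc41a3, and 12 of the 14 in total RNA, all but Slc46a1 and Slc4a2. Upper-quartile factors and library size only each ended 6 total RNA calls, among them Slc44a1, Slc46a1, Slc48a1, Slc4a2 and Slc9a2. The causes were not tested.

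Among the named genes, sign changes were confined to values that did not pass in that comparison. For RPFs, the fit without the replicate block gave -0.0259 for Slc4a7. For RPFs, library size only gave -0.0888 for Slc4a7, -0.12 for Slc29a2, -0.11 for Slc20a1, -0.00253 for Slc4a2, -0.0431 for Slc44a2 and -0.0198 for Slc4a11. For RPFs, DESeq2 gave -0.00318 for Slc29a2 and -0.0870 for Slc16a3. For RPFs, upper-quartile factors gave -0.0117 for Slc29a2 and -0.0253 for Slc20a1. With 1 replicate left out, the ranges for RPFs were -0.0832 to 0.34 for Slc4a7, -0.12 to 0.31 for Slc29a2, -0.12 to 0.25 for Slc20a1, -0.0205 to 0.23 for Slc44a2 and -0.0325 to 0.34 for Slc4a11. For total RNA, upper-quartile factors gave -0.0137 for Slc4a7. For total RNA, library size only gave -0.13 for Slc4a7, -0.0219 for Slc12a2, -0.0764 for Slc16a1, -0.00382 for Slc43a2 and -0.0771 for Slc44a2. For total RNA, the RPF isoform gave -0.00569 for Slc4a7 and -0.11 for Slc8b1. With 1 replicate left out, the ranges for total RNA were -0.14 to 0.33 for Slc4a7, -0.00977 to 0.46 for Slc12a2, -0.13 to 0.33 for Slc8b1, -0.0734 to 0.39 for Slc16a1 and -0.0335 to 0.27 for Slc44a2.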

Other observations

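RPF counts come from 1 transcript per gene, whereas total RNA was summed over isoforms. A median of 71.0% of the total RNA counts of the 81 genes fell on the transcript that carries the RPF counts, and 21 genes had under 50%. The share was 18.6% for the nucleoside carrier Slc29a1, 24.6% for the bicarbonate carrier Slc4a7, 26.4% for the biotin carrier Slc5a6 and 100% for Slc16a1. Slc23a1, an ascorbate carrier just under the count minimum, had 2721 counts over 8 total RNA libraries and 9 over 8 RPF libraries.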
